A study of Mus musculus with 12 samples.

Results

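Voltage-gated and potassium channel genes set the shape of the cardiac action potential, and the genes taken here were all rows of the heart expression table whose symbol begins with Kcn or Cacn, or with Hcn or Scn followed by a digit. There were 76 such genes among 13552 in the table, and 48 of them reached 1 RPKM (reads on a gene scaled to exon length in kilobases and to library size) in at least 3 mice and were tested. RNA came from whole hearts of male C57BL/6 mice (C57BL/6J in the study's methods) aged 8 to 10 weeks, taken 9 h after transverse aortic constriction (TAC, a band around the aortic arch that raises the load on the left ventricle) or after sham surgery. Wild-type (WT) mice were compared with homozygous knock-in (KI) mice, in which serine 14 of the survival protein Bcl-xL is replaced by alanine and cannot be phosphorylated. There were thus 4 groups of 3 mice each: WT mice after sham surgery or TAC, and KI mice after either, numbered as in the labels. The KI allele was germline, its selection cassette had been removed by crossing with CMV-Cre mice, and the line had been crossed back for more than 8 generations, while the study's WT mice were purchased. In bulk RNA from whole hearts, fewer cells of a type and less RNA per cell cannot be told apart.

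As background, a heartbeat starts when sodium channels open and drive the fast upstroke, after which L-type calcium channels carry the calcium that triggers contraction. Potassium channels then end the action potential: the transient outward and delayed rectifier channels repolarize the cell, and the inward rectifiers hold the resting potential. Pacemaker (HCN) channels and T-type calcium channels serve automaticity and are most abundant in the conduction system and atria. In pressure-overloaded hearts a fall of potassium channel transcripts, with a longer action potential, is well known.

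Each library held 23650881 to 32455662 reads on genes, as recovered from the RPKM values and exon lengths. Heart muscle markers were present in every mouse, the summed RPKM of 6 cardiomyocyte markers lying between 12676 and 22733, most of it from Actc1. Of these 6 markers Myh6 fell in WT hearts after TAC (-1.15, adjusted p = 0.0129, limma), none was called in KI hearts, and Tnni3 and Myl2 were higher in KI TAC than WT TAC hearts by 0.95 and 0.86. The summed level of 5 leukocyte markers was 65.4 to 111 RPKM in WT sham, 132 to 193 in WT TAC, 71.0 to 96.1 in KI sham and 76.6 to 103 in KI TAC hearts. The 3 neutrophil markers in the table summed to 0.508 to 1.27, 3.69 to 9.87, 0.395 to 0.505 and 4.18 to 20.3 RPKM in the same order. WT TAC mouse 10 stood apart in the sum of 5 fibroblast markers, at 549 RPKM against 85.3 to 251 in the other 11 mice. Col1a1 made up 461 of it, whereas Dcn was at 43.3 RPKM against 25.3 to 51.0 in the others. Of 5 atrial markers only Dkk3 was among the genes analysed, at 0.206 to 2.47 RPKM. None of 5 neuron markers was among them. The part of these differences in the channel results was not tested. A change of a single residue does not show in gene-level values, so the genotype labels could not be checked.

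The promoters shown here belong to 3 genes that were lower after TAC in both genotypes, and each holds at least 1 GC box, 1 of the 5 motifs searched. Of the 3, Kcnc1 passed the expression filter of 1 RPKM through sham mice alone, where it was high. RefSeq (GRCm38.p6) gave 77 windows for 53 of the 76 genes, read here over the 250 bases before the start site. Capitals mark the GC box GGGCGG on either strand. The Hcn2 window is chr10:79716384-79716633 on the plus strand, the Kcnc1 window is chr7:46396218-46396467 on the plus strand and the Kcnd2 window is chr6:21215096-21215345 on the plus strand.
Hcn2: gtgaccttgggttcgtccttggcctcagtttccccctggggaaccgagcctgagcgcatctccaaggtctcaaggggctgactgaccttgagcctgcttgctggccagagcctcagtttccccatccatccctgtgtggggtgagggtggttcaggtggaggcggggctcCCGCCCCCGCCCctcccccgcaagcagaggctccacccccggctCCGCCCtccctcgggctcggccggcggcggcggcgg
Kcnc1: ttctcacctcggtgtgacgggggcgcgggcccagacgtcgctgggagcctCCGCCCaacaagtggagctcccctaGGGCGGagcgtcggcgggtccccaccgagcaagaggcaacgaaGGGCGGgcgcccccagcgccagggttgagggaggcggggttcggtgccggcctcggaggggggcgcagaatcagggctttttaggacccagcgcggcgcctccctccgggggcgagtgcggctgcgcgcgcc
Kcnd2: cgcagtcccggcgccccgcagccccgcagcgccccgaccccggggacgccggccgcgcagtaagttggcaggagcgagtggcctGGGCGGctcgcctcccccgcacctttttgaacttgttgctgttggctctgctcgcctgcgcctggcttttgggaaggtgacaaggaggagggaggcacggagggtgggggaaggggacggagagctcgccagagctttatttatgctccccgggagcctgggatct
None of these 3 windows touches an exon annotated in GENCODE M21. The GC box was found in 33 of the 77 windows of channel genes (42.9%) and in 32.7% of all 32851 windows. Among the 10 windows of genes lower after TAC in both genotypes 5 held it. The TATA box TATAAA was in 1 of the 77 windows (1.30%) against 12.4% of all windows. The E-box CACGTG was in 6.49% against 6.02%, the M-CAT element CATTCC in 14.3% against 12.6%, and part of the RE1 element, GGACAGC, in 7.79% against 5.28%. All were searched on both strands, and none of the 5 motifs contains another. A match is a description of the letters only.

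In sham hearts a few channels held most of the signal. Per kilobase of exon, Kcng2 (Kv6.2, a silent subunit that joins other delayed rectifier subunits) was the most abundant member in WT sham hearts, with a mean of 391 RPKM or 27.9% of the summed level of all 76 genes. Kcnk3 (TASK-1, a background potassium channel) was at 175 RPKM, below Kcng2 in every mouse. The transient outward subunit Kcnip2, the ATP-sensitive channel pore Kcnj11 and the hERG channel Kcnh2 were at 86.3, 79.8 and 66.6 RPKM. The 28 genes under the filter lay between 0.015 and 1.81 RPKM, with a median of 0.245.

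**Figure D1:**
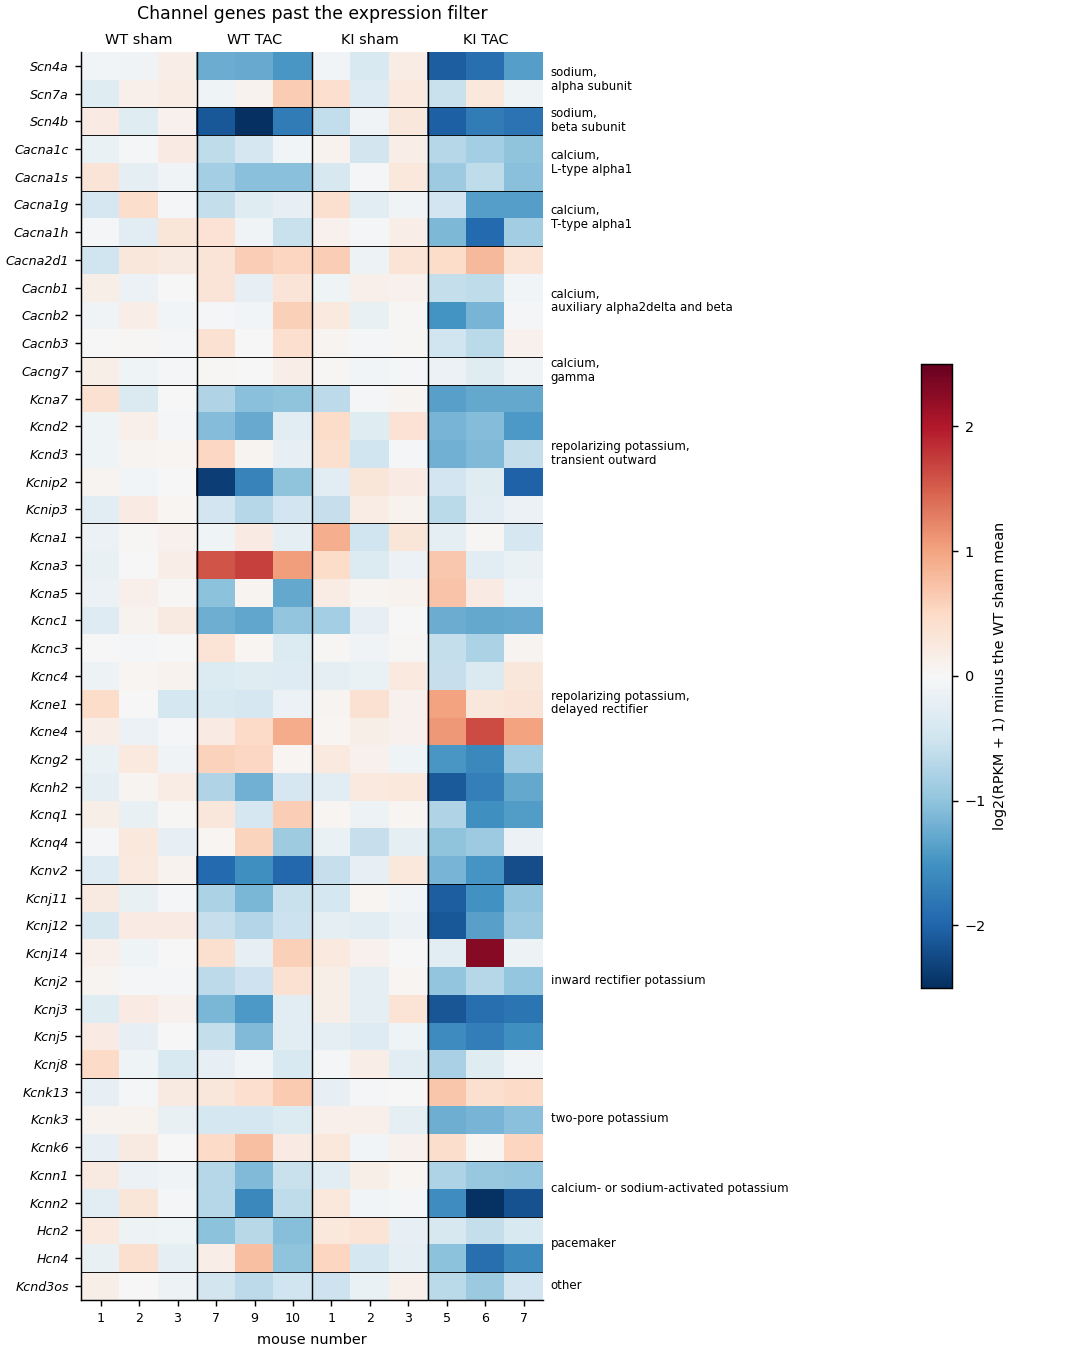
For 45 of the tested channel genes (rows, ordered by current) the 12 mice (columns) are coloured by log2(RPKM + 1) minus the WT sham mean of each gene, with colours capped at 2.5 in either direction. Blue fills most rows of the 3 KI TAC mice, with fewer blue rows in WT TAC mice, while the KI sham mice differ little from WT sham.

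The question of the first comparison was whether 9 h of pressure overload alters channel genes in WT hearts. In WT hearts after TAC, 12 channel genes fell and 1 rose (adjusted p under 0.05 over all genes, limma). Over all 11240 genes tested, 4.6% were called lower and 6.96% higher, whereas 25.0% of the 48 channel genes were lower. The median change of the channel genes was -0.29 on the log2(RPKM + 1) scale, against 0.04 for all genes. Quantile normalization gave 15 lower channel genes, beside 7.2% of all genes lower and 6.68% higher. Without the filter the median change was -0.03 over all 76 channel genes, 40 of them below 0, against 0.04 for all genes. Omitting a single mouse gave 8 to 16 lower calls, the fewest without WT TAC mouse 7 and the most without WT TAC mouse 10. Over all genes 201 of 11169 and 706 of 11132 were lower in the same omissions.

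In KI hearts TAC was followed by 27 lower and 2 higher channel genes. Over all genes 14.7% were called lower and 8.57% higher, whereas 56.2% of the tested channel genes were lower. Median-ratio scaling left 24 lower, beside 11.9% of all genes lower and 12.9% higher. The median change of the channel genes was -0.82, against -0.10 for all genes, and -0.34 without the filter over all 76, with 58 below 0. Because the median of all genes itself moved by more than 0.1 when libraries were scaled by median ratios, the change was also counted relative to it: 39 of 48 channel genes lay below the median of all genes in KI hearts and 33 of 48 in WT hearts. The summed level of all 76 channel genes was 1362 to 1453 RPKM in WT sham and 1222 to 1359 in WT TAC hearts, and in KI mice 1386 to 1420 after sham surgery and 649 to 842 after TAC. Without Kcng2 the sum was 991 to 1019 in WT sham, 749 to 823 in WT TAC, 963 to 1026 in KI sham and 509 to 630.5 in KI TAC hearts.

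Of the 12 genes that fell in WT hearts, 11 also fell in KI hearts, which is 91.7% of the WT list and 40.7% of the KI list. Over all genes tested, 323 of the 517 lower in WT hearts were among the 1657 lower in KI hearts, or 62.5% and 19.5% of these lists. The 11 channel genes were Cacna1s, Hcn2, Kcna7, Kcnc1, Kcnd2, Kcnj3, Kcnn1, Kcnn2, Kcnv2, Scn4a and Scn4b. Kcnc1 passed the filter through sham mice alone, so its falls cannot serve as support. The remaining gene, Kcnip2, changed in KI hearts by -1.01 ± 0.40 (SE, adjusted p = 0.0831, limma). The other 16 genes that fell in KI hearts did not pass the threshold in WT hearts, and that difference is not established gene by gene: in the interaction of genotype and surgery no channel gene was called, with 17 of 48 at an unadjusted p under 0.05. None of the 11240 genes was called there (0%). Omitting WT TAC mouse 9 gave 4 channel genes in the interaction (Kcng2, Kcnq1, Kcnn2 and Kcna5), and omitting KI TAC mouse 7 gave 2 (Kcng2 and Cacnb2). Over all genes 232 of 11191 and 183 of 11169 were called in the same 2 omissions.

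**Figure D2:**
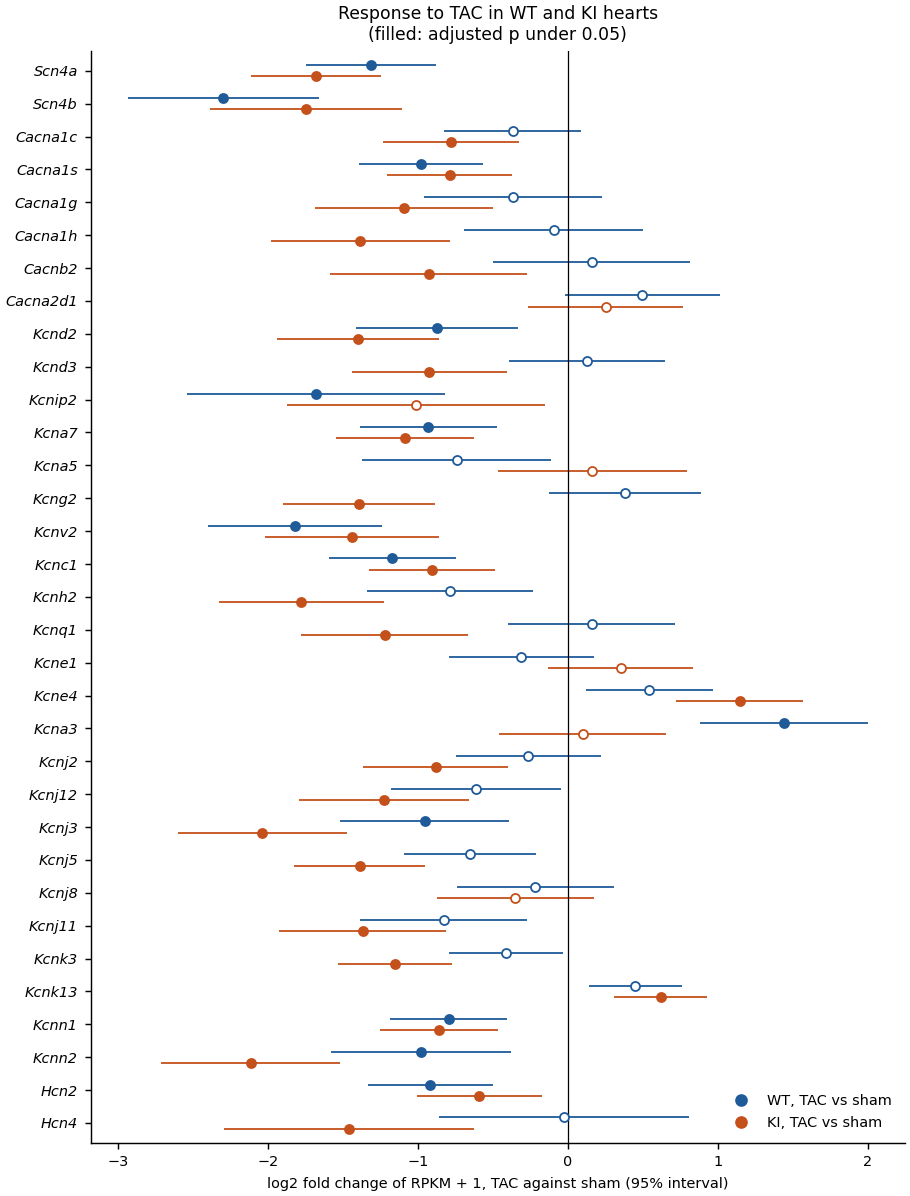
Log2 fold change of RPKM + 1 after TAC against sham for 33 channel genes, in WT hearts (blue) and KI hearts (orange), with 95% intervals from limma. Filled points passed an adjusted p of 0.05. Scn4b, Scn4a and Kcnv2 lie far to the left in both genotypes, whereas the KI points of Kcng2, Kcnq1 and Hcn4 lie left of 0 and their WT points near 0.

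Among the sodium channels, 1 of 3 tested alpha subunits (Scn4a) and 1 of 2 tested beta subunits (Scn4b) fell after TAC in both genotypes. Scn4b, the beta4 subunit, modulates the opening of sodium channels. On the log2(RPKM + 1) scale, which understates falls of low genes, it showed the largest fall of any tested channel gene in WT hearts. Its RPKM was 27.2, 19.0 and 25.4 in WT sham mice 1, 2 and 3, 4.68, 2.0 and 6.32 in WT TAC mice 7, 9 and 10, 15.1, 22.04 and 29.0 in KI sham mice 1, 2 and 3, and 4.96, 6.27 and 5.81 in KI TAC mice 5, 6 and 7. Later values follow the same order of mice. Every TAC heart lay below every sham heart in both genotypes. Scn4b fell by 2.30 ± 0.30 on the log2 scale in WT (adjusted p = 0.000429, limma) and by 1.75 ± 0.30 in KI hearts (adjusted p = 0.00124). Values of the 2 TAC groups overlapped, with a difference of 0.41 and a 95% interval from -0.22 to 1.05.

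Scn4a, the skeletal muscle sodium channel that is present at lower levels in heart, was at 18.5, 18.4 and 21.9 RPKM in WT sham and 7.69, 7.58 and 6.53 in WT TAC mice. In KI mice it was at 18.6, 14.7 and 22.2 after sham and at 3.91, 4.56 and 6.94 after TAC. The groups did not overlap in either genotype, and Scn4a fell by 1.32 ± 0.20 in WT (adjusted p = 0.00142, limma) and by 1.68 ± 0.20 in hearts of KI mice (adjusted p = 0.000151).

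The L-type calcium channel pore Cacna1c, which carries the trigger calcium of contraction, was at 33.9, 37.4 and 44.6 RPKM in WT sham and 24.5, 28.5 and 36.7 in WT TAC mice. In KI mice it was at 40.9, 27.5 and 42.9 after sham and at 23.0, 20.9 and 18.7 after TAC. The WT groups overlapped and the KI groups did not. The change was -0.37 ± 0.21 in WT hearts (adjusted p = 0.276, limma), and Cacna1c fell by 0.78 ± 0.21 in KI hearts (adjusted p = 0.0181). That call was lost without KI sham mouse 1 or 3, and under median-ratio scaling and limma-voom.

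Cacna1s, the skeletal muscle L-type pore, lay at 1.21 to 4.73 RPKM and fell by 0.98 in WT and 0.79 in KI hearts, the KI call being lost without KI sham mouse 3. The beta2 subunit Cacnb2, which brings the L-type pore to the membrane, was at 1.39, 2.0 and 5.64 RPKM in KI TAC mice against 4.92 to 7.01 in KI sham mice. Mouse 7 thus lay within the sham range, and the fall of 0.93 ± 0.31 (adjusted p = 0.0419, limma) was lost when any of KI sham mice 1 to 3 or KI TAC mice 5 and 6 was omitted, and in the fit of the 2 groups alone. Cacna2d1, the alpha2delta1 subunit, changed by 0.49 in WT and 0.25 in KI hearts and passed in neither.

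The T-type calcium channels were lower in KI TAC hearts. Cacna1h (Cav3.2) was at 8.76, 7.17 and 11.3 RPKM in WT sham, 11.7, 8.39 and 5.73 in WT TAC, 9.66, 8.55 and 10.2 in KI sham and 3.57, 1.57 and 4.42 in KI TAC mice. All KI TAC values lay below those of the other 9 mice. Cacna1h fell by 1.39 ± 0.28 in KI hearts (adjusted p = 0.00339, limma), changed by -0.10 ± 0.28 in WT hearts (adjusted p = 0.852), and the interaction was -1.29 ± 0.39 (adjusted p = 0.181). Cacna1g (Cav3.1) fell by 1.10 in KI hearts and changed by -0.37 in WT hearts, and omitting KI sham mouse 1 or else KI TAC mouse 6 ended the KI call.

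**Figure D3:**
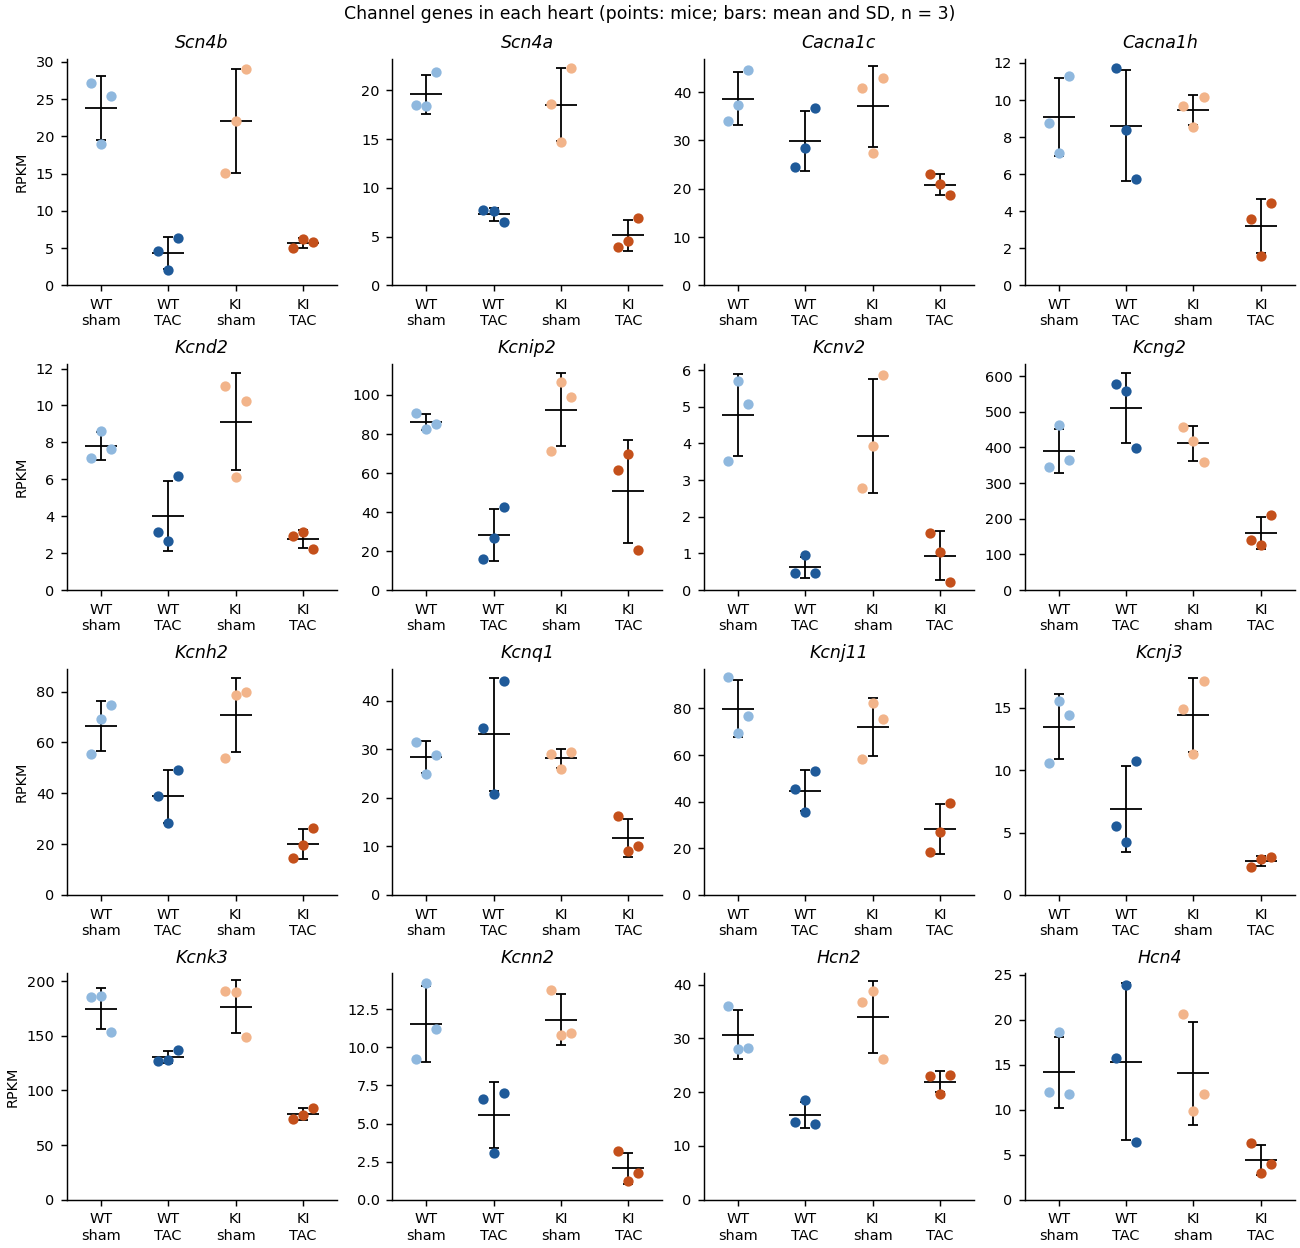
RPKM of 16 channel genes in each mouse (points), with the mean and SD of the 3 mice per group. Scn4b, Scn4a and Kcnv2 are low in both TAC groups, Kcng2, Kcnq1, Cacna1h and Hcn4 are lowest in KI TAC mice, and Kcnh2 and Kcnk3 step down from sham to WT TAC to KI TAC.

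The fast transient outward current of the mouse ventricle is built from the Kcnd2 pore (Kv4.2), with Kcnd3 (Kv4.3) and the accessory subunit Kcnip2 (KChIP2). The 8 genes of this group summed to 104 to 113 RPKM in WT sham, 31.8 to 57.7 in WT TAC, 94.2 to 125 in KI sham and 29.4 to 78.1 in KI TAC hearts. Most of each sum was the accessory subunit Kcnip2, with means of 86.3, 28.3, 92.5 and 50.6 RPKM in the same order. The sums therefore say little about the pore genes. Of 5 tested, 3 fell in WT hearts (Kcnd2, Kcnip2 and Kcna7) and 3 in KI hearts (Kcnd2, Kcnd3 and Kcna7). The WT call of Kcna7 was lost without WT sham mouse 1.

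Kcnip2 was at 90.9, 82.7 and 85.2 RPKM in WT sham and at 16.0, 26.5 and 42.4 in WT TAC mice. In KI mice it was at 71.4, 107 and 99.1 after sham and at 61.7, 69.5 and 20.6 after TAC. KI TAC mouse 7 was low, while mice 5 and 6 were just under the lowest KI sham mouse in RPKM. Median-ratio size factors were 0.829 and 0.929 for KI TAC mice 5 and 6 and 1.015 for KI sham mouse 1. Division by them put KI TAC mice 5 and 6 above KI sham mouse 1. Kcnip2 fell by 1.68 ± 0.40 in WT hearts (adjusted p = 0.0161, limma), a call lost without WT TAC mouse 7, and the 2 TAC groups differed by 0.75 with a 95% interval from -0.11 to 1.61.

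Kcnd2 was at 7.18, 8.62 and 7.62 RPKM in WT sham, 3.17, 2.67 and 6.20 in WT TAC, 11.04, 6.12 and 10.2 in KI sham and 2.91, 3.16 and 2.23 in KI TAC mice. WT TAC mouse 10 stood closest to the sham hearts, and neither genotype overlapped. Kcnd2 fell by 0.87 ± 0.25 in WT (adjusted p = 0.0379, limma) and by 1.40 ± 0.25 in KI hearts (adjusted p = 0.00170). Without any of WT sham mice 1 to 3 or WT TAC mice 7 and 9, and in the fit of the 2 groups alone, the WT call was lost. Kcnd3 was called in KI hearts alone, at -0.92 against 0.13 in WT hearts. Omitting KI sham mouse 1, or KI TAC mouse 5 or 6, ended the KI call, and reads in the 165 exon bases that Kcnd3 (1.72% of its exons) shares with the opposite-strand gene Kcnd3os cannot be assigned to either if counting ignored strand. Kcna4 (Kv1.4, the slow transient outward pore) was under the filter at 0.0919 to 0.594 RPKM.

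Among delayed rectifiers, Kcng2 was the most abundant channel gene in all 4 groups. It was at 346, 462 and 365 RPKM in WT sham, 578, 558 and 399 in WT TAC, 457, 419 and 359.6 in KI sham and 140.4, 127 and 212 in KI TAC mice. Each KI TAC value lay below every other heart. Kcng2 fell by 1.39 ± 0.24 in KI hearts (adjusted p = 0.00122, limma), changed by 0.38 ± 0.24 in WT hearts (adjusted p = 0.317), and the interaction was -1.77 ± 0.33 (adjusted p = 0.0988), the lowest adjusted p of the 48 genes. The opposite-strand gene D330025C20Rik shares 272 exon bases (9.10%) with Kcng2. Without Kcng2, the repolarizing genes still summed to 256 to 276, 153 to 194, 254 to 299 and 115 to 160 RPKM, in the order WT sham and TAC, then KI sham and TAC.

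Kcnh2 (hERG, the rapid delayed rectifier pore) was at 55.6, 69.3 and 74.8 RPKM in WT sham, 39.0, 28.2 and 49.1 in WT TAC, 53.8, 78.5 and 80.0 in KI sham and 14.6, 19.5 and 26.5 in KI TAC mice. The 4 groups ordered as sham above WT TAC above KI TAC, and the TAC groups did not overlap. It fell by 1.78 ± 0.26 in KI hearts (adjusted p = 0.000452, limma) and changed by -0.79 ± 0.26 in WT hearts (adjusted p = 0.0631).

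Kcnq1 (the slow delayed rectifier pore) was at 31.4, 24.9 and 28.8 RPKM in WT sham, 34.5, 20.8 and 44.1 in WT TAC, 29.1, 25.9 and 29.4 in KI sham and 16.3, 9.14 and 10.0 in KI TAC mice. The WT TAC mice were scattered around the WT sham values, and all KI TAC values lay below the rest. Kcnq1 fell by 1.22 ± 0.26 in KI hearts (adjusted p = 0.00450, limma) and changed by 0.16 ± 0.26 in WT hearts (adjusted p = 0.724). Its partner Kcne1 was at 1.63, 0.908 and 0.407 RPKM in WT sham and 0.472, 0.441 and 0.738 in WT TAC mice. In KI mice it was at 1.01, 1.49 and 1.07 after sham and at 2.83, 1.33 and 1.41 after TAC. KI TAC mice 6 and 7 lay within the KI sham range. After TAC Kcne1 changed by -0.31 in WT and 0.35 in KI hearts and passed in neither. It was higher in KI TAC than WT TAC hearts by 0.85 ± 0.23 (adjusted p = 0.0310, limma). That call ended in 4 of 6 single-mouse omissions, of WT TAC 7 and 9 and KI TAC 5 and 6. Fitting the 2 TAC groups alone ended it too. Kcnq1 shares 121 exon bases with its antisense Kcnq1ot1, which was under the filter.

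Kcnv2 (Kv8.2, a silent subunit) was at 3.53, 5.70 and 5.07 RPKM in WT sham and 0.472, 0.959 and 0.457 in WT TAC mice, and in KI mice at 2.80, 3.94 and 5.87 after sham and at 1.56, 1.04 and 0.230 after TAC. The groups did not overlap in either genotype, and Kcnv2 fell by 1.82 ± 0.27 in WT (adjusted p = 0.00110, limma) and by 1.44 ± 0.27 in KI hearts (adjusted p = 0.00221). Kcnc1 (Kv3.1), near 1 to 2 RPKM in WT sham hearts, fell by 1.17 and 0.91. Its mean went from 1.54 to 0.121 RPKM in WT and from 1.02 to 0.0477 in KI hearts. As a ratio of means that was a steeper fall than that of Scn4b or Kcnn2, but Kcnc1 passed the filter through sham mice alone. Kcna5 (Kv1.5, the ultrarapid delayed rectifier) passed in neither, at -0.74 in WT and 0.16 in KI hearts.

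Increases were few. Kcna3 (Kv1.3), best known from leukocytes, was at 0.295, 0.489 and 0.645 RPKM in WT sham and 3.35, 3.78 and 2.03 in WT TAC mice. It was at 1.35, 0.216 and 0.317 in KI TAC mice and 0.157 to 1.01 in KI sham mice. All 3 WT TAC mice were above the other 9, and Kcna3 rose by 1.44 ± 0.26 in WT hearts (adjusted p = 0.00381, limma). It passed the filter only with those 3 mice, since just 2 of the other 9 reached 1 RPKM. In WT TAC hearts 3 of 4 tested leukocyte markers (Adgre1, Cd68 and Lyz2) were called higher, and in KI TAC hearts none was higher and Csf1r was lower. Of 3 neutrophil markers 2 were called higher in WT TAC and 3 in KI TAC hearts. The part of these cells in the Kcna3 result was not tested.

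Kcne4, which encodes an accessory subunit that damps potassium currents, was at 1.15, 1.31 and 1.24 RPKM in KI sham and 3.40, 5.48 and 3.21 in KI TAC mice. It was at 1.41, 1.92 and 2.97 in WT TAC mice. The KI TAC mice were the 3 highest of all 12, and Kcne4 rose by 1.14 ± 0.20 in KI hearts (adjusted p = 0.00136, limma) and changed by 0.54 ± 0.20 in WT hearts (adjusted p = 0.0921). Kcnk13 (THIK-1) rose by 0.62 in KI hearts, from 0.276 to 0.455 RPKM in sham to 0.933 to 1.39 in TAC mice. It passed the filter through 3 TAC mice alone, and Kcnc1 and Kcnd3os through sham mice alone.

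Of the inward rectifier genes, which stabilize the resting potential, 1 of 7 tested fell in WT hearts (Kcnj3) and 5 in KI hearts (Kcnj2, Kcnj12, Kcnj3, Kcnj5 and Kcnj11). The 9 genes in the table, of which Kcnj11 and Kcnj12 were the most abundant in sham hearts, summed to 177 to 199 RPKM in WT sham, 100.2 to 135 in WT TAC, 154 to 175 in KI sham and 51.5 to 96.5 in KI TAC hearts.

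Kcnj3 (Kir3.1, one pore of the acetylcholine-gated current, most abundant in atria) was at 10.6, 15.5 and 14.4 RPKM in WT sham, 5.53, 4.27 and 10.8 in WT TAC, 14.9, 11.3 and 17.1 in KI sham and 2.27, 2.88 and 3.02 in KI TAC mice. WT TAC mouse 10 overlapped with WT sham, and KI TAC mice lay below all others. Kcnj3 fell by 0.96 ± 0.26 in WT (adjusted p = 0.0308, limma), a call lost without WT sham mouse 2 or 3 or WT TAC mouse 7 or 9 and in the fit of the 2 groups alone, and by 2.04 ± 0.26 in KI hearts (adjusted p = 0.000206). Its partner Kcnj5 (Kir3.4) fell by 1.39 in KI hearts and changed by -0.66 in WT hearts. Antisense Gm26794 shares 1621 exon bases (31.1%) with Kcnj3.

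Kcnj11 (Kir6.2, the ATP-sensitive channel pore) was at 93.3, 69.6 and 76.6 RPKM in WT sham, 45.4, 35.5 and 53.4 in WT TAC, 58.1, 82.4 and 75.4 in KI sham and 18.3, 27.0 and 39.4 in KI TAC mice. Sham and TAC mice did not overlap in either genotype. Kcnj11 fell by 1.37 ± 0.26 in KI hearts (adjusted p = 0.00240, limma) and changed by -0.83 ± 0.26 in WT hearts (adjusted p = 0.0541). Kcnj8 (Kir6.1), its vascular counterpart, changed by -0.22 and -0.35 and passed in neither.

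Kcnj2 and Kcnj12 (Kir2.1 and Kir2.2, which carry the classical inward rectifier current) fell by 0.88 and 1.23 in KI hearts and changed by -0.27 and -0.61 in WT hearts. The KI call of Kcnj2 was lost without KI sham mouse 3. Kcnj14, chosen after its values were seen, was at 6.495 RPKM in KI TAC mouse 6 and at most 1.32 in the other 11 mice.

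Kcnk3 was at 185, 186 and 153 RPKM in WT sham, 127, 127 and 137 in WT TAC, 191, 189.8 and 149 in KI sham and 74.0, 77.2 and 84.1 in KI TAC mice. No groups overlapped except the 2 sham groups. Kcnk3 fell by 1.15 ± 0.18 in KI hearts (adjusted p = 0.000654, limma) and changed by -0.41 ± 0.18 in WT hearts (adjusted p = 0.146), with an interaction of -0.74 ± 0.25 (adjusted p = 0.220).

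The calcium-activated channel genes tested, Kcnn1 and Kcnn2, fell after TAC in both genotypes, while others of the class such as Kcnn3 were under the filter. Kcnn2 (SK2) was at 9.21, 14.2 and 11.2 RPKM in WT sham, 6.58, 3.05 and 7.00 in WT TAC, 13.8, 10.8 and 10.9 in KI sham and 3.20, 1.23 and 1.72 in KI TAC mice. The sham and TAC mice were separate in each genotype. Kcnn2 fell by 0.98 ± 0.28 in WT hearts (adjusted p = 0.0358, limma) and by 2.11 ± 0.28 in KI hearts (adjusted p = 0.000227). On the log2(RPKM + 1) scale the KI change was the largest fall of any tested channel gene in KI hearts. The WT call was lost without WT sham mouse 2 or 3, without WT TAC mouse 7 or 9, with a pseudocount of 0.1, with limma-voom and in the fit of the 2 groups alone. Kcnn1 (SK1) fell by 0.80 and 0.86, a call lost in WT hearts without WT sham mouse 1 or WT TAC mouse 9.

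**Figure D4:**
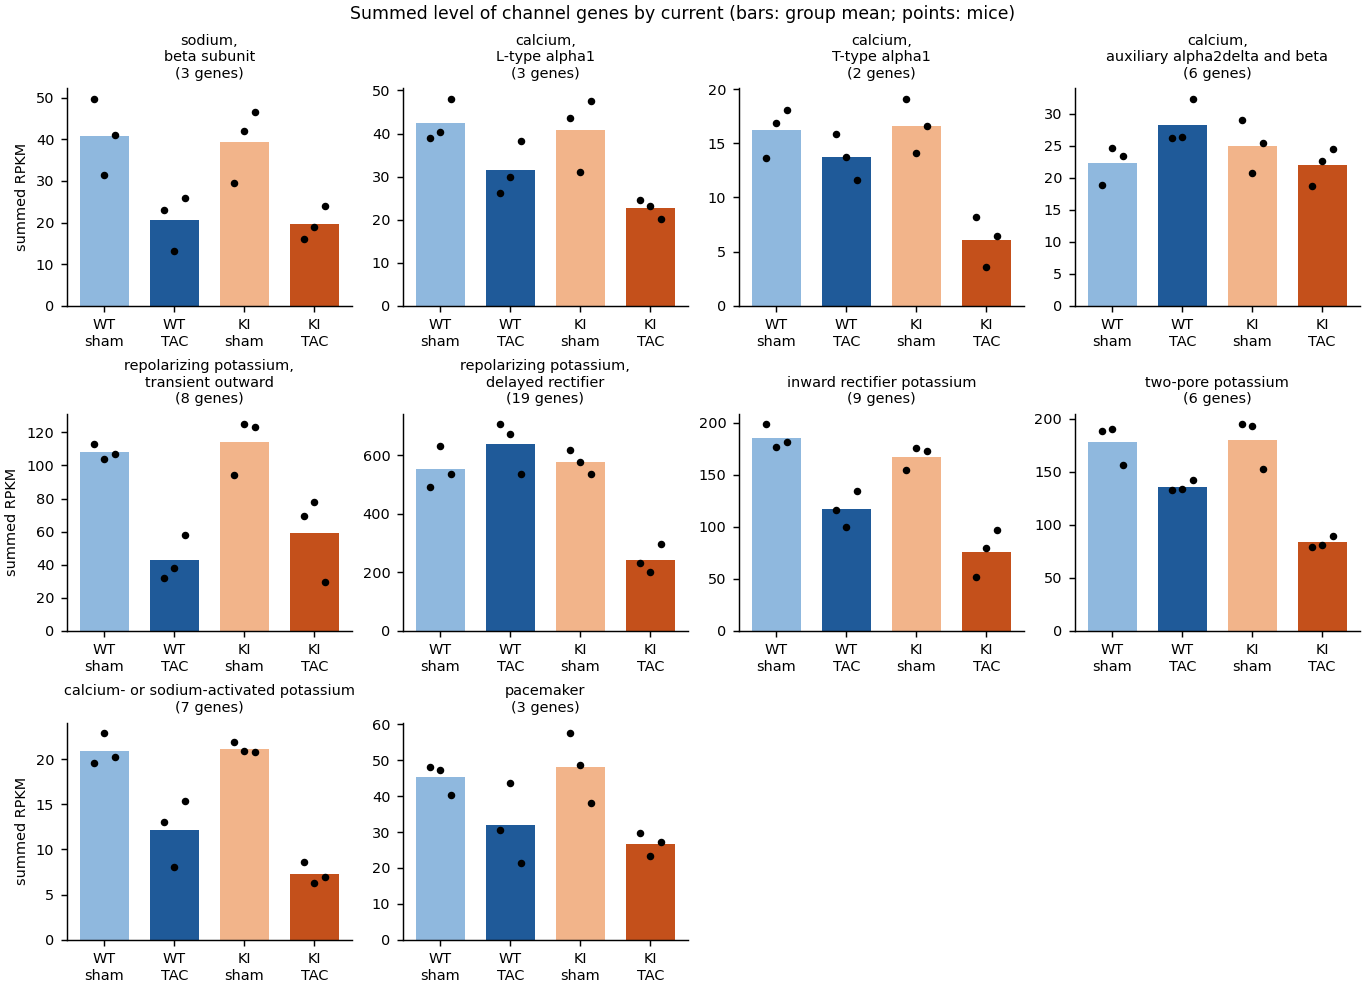
Summed RPKM of the channel genes of 10 classes in each mouse (points), with bars at the group mean and the number of genes in each title. The transient outward sum, most of it Kcnip2, and the inward rectifier sum are lower in both TAC groups. The delayed rectifier sum, which Kcng2 dominates, is lower in KI TAC alone.

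Of the pacemaker genes, Hcn2 fell in both genotypes and Hcn4 in KI hearts. Hcn2, the main ventricular form, was at 36.1, 27.9 and 28.1 RPKM in WT sham, 14.5, 18.6 and 14.2 in WT TAC, 36.9, 38.8 and 26.2 in KI sham and 23.0, 19.8 and 23.1 in KI TAC mice. The WT TAC mice were the 3 lowest of 12, and the KI TAC mice lay just below KI sham. Hcn2 fell by 0.92 ± 0.19 in WT (adjusted p = 0.00891, limma) and by 0.59 ± 0.19 in hearts of KI mice (adjusted p = 0.0415). The latter call was lost without KI sham mouse 1 or 2 or any KI TAC mouse, under median-ratio scaling and limma-voom, and in the fit of the 2 groups alone.

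Hcn4, the form of the sinus node, was at 11.99, 18.7 and 11.75 RPKM in WT sham, 15.7, 23.9 and 6.39 in WT TAC, 20.6, 9.87 and 11.8 in KI sham and 6.32, 2.99 and 3.92 in KI TAC mice. WT TAC mice spread widely, and the KI TAC mice were the 3 lowest in RPKM, mouse 5 lying just below WT TAC mouse 10. Division by the median-ratio size factors, 0.829 for KI TAC mouse 5 and 1.121 for WT TAC mouse 10, reversed that order. Hcn4 fell by 1.46 ± 0.39 in KI hearts (adjusted p = 0.0161, limma), a call that ended when KI sham mouse 1 or else KI TAC mouse 6 was omitted, and changed by -0.03 ± 0.39 in WT hearts (adjusted p = 0.975).

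The genotypes were then compared after TAC, a contrast that shares its mice with both previous ones. In KI TAC against WT TAC hearts, 13 channel genes were lower and 3 higher (Kcna5, Kcne1 and Kcne4). Over all genes 8.13% were called lower and 2.92% higher, against 27.1% lower among the tested channel genes, with a median of -0.41 against -0.12 for all genes. With quantile normalization 8 channel genes were lower, beside 5.45% of all genes lower and 4.65% higher, and with median-ratio scaling 11, beside 5.39% and 5.8%. On the log2(RPKM + 1) scale Kcng2 was lowest, at -1.69 ± 0.24 (adjusted p = 0.00421, limma), followed by Hcn4 at -1.47 ± 0.39 (adjusted p = 0.0303) and Kcnq1 at -1.39 ± 0.26 (adjusted p = 0.00834). Kcna3, 1 of the 13 lower genes, was at -1.36 ± 0.26 (adjusted p = 0.00929, limma). It passed the filter only with the WT TAC mice, where it was high, so its p-value here cannot serve as support. Among the higher genes Kcna5 was at 10.1, 22.7 and 8.25 RPKM in WT TAC and 35.9, 24.8 and 20.3 in KI TAC mice, and these groups overlapped. The call of Hcn4 was lost under quantile normalization, median-ratio scaling and limma-voom.

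These calls rested on few mice. Without WT TAC mouse 7 only Kcng2 and Kcnq1 were called, and without KI TAC mouse 6 only Kcng2. Calls over all genes fell with them, from 1242 to 154 and 182. Without KI TAC mouse 5 there were 9 calls, all lower, beside 629 of 11200 genes called, 427 of them lower. The fit of the 2 TAC groups alone gave 3, beside 216 of 11240 genes. Kcng2 was the single channel gene called in every omission, and the median of the channel genes lay between -0.49 and -0.37 in the omissions, at -0.25 after quantile normalization, at -0.29 with median-ratio scaling and at -0.20 without the filter.

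**Figure D5:**
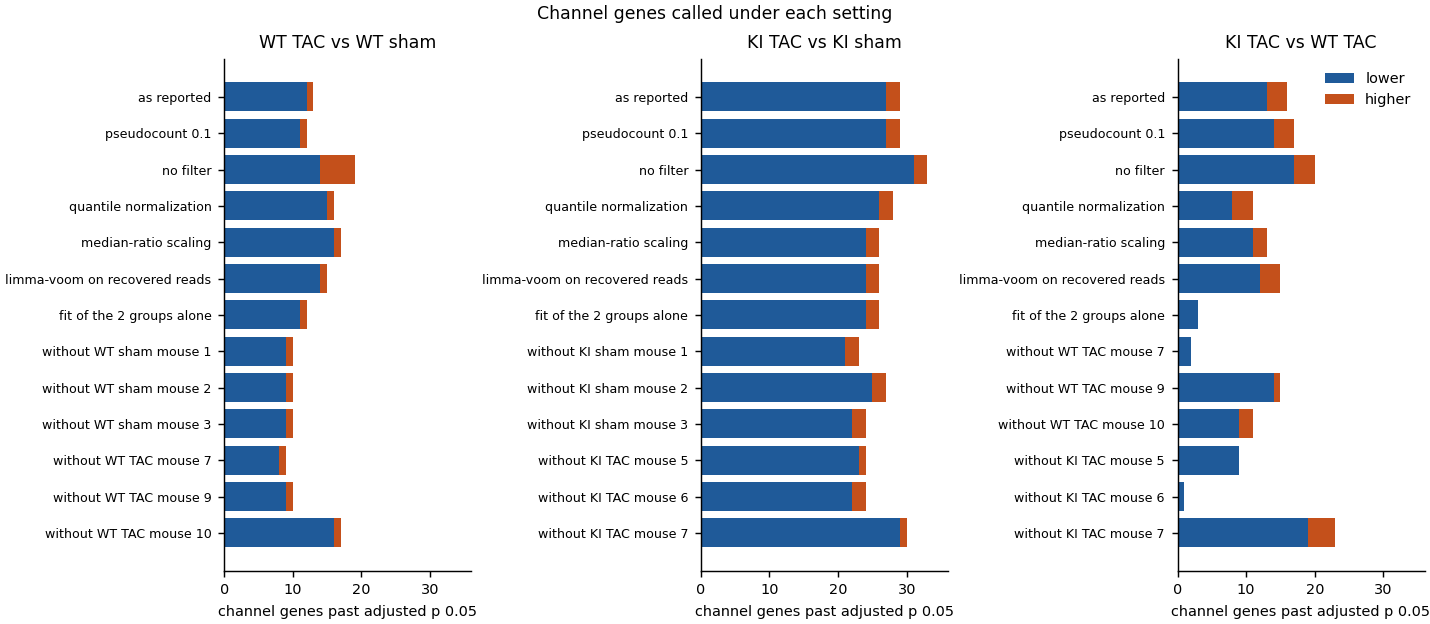
Number of channel genes lower (blue) and higher (orange) at an adjusted p of 0.05 in the 3 comparisons, as reported and under each alternative or with one mouse left out. The KI TAC against KI sham count stays between 23 and 33 in all settings, and the KI TAC against WT TAC count drops to 1 without KI TAC mouse 6.

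After sham surgery no channel gene differed between genotypes. None of 48 passed the limma threshold, none had an unadjusted p under 0.05, and limma-voom called none, against 2 of 11240 genes called in all (0.0178%). The estimates ran from -0.35 for Kcnc1 to 0.28 for Cacna2d1, with 95% half-widths of 0.27 to 1.03 on the log2 scale, so differences within those widths were not detectable.

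Partners of the channels were taken from a list of 40 genes, of which 33 were in the table and 32 were tested. After TAC 5 rose and 2 fell in WT hearts, and 6 rose and 7 fell in KI hearts, with medians of 0.11 and -0.14. The lower calls were 6.25% of the tested partners in WT hearts, against 4.6% of all genes, and 21.9% in KI hearts, against 14.7%. The higher calls were 15.6% in WT hearts, against 6.96%, and 18.8% in KI hearts, against 8.57%. Fhl1, a LIM protein of the sarcomere, rose by 3.28 ± 0.28 in WT (adjusted p = 4.95e-05, limma) and 3.25 ± 0.28 in KI hearts (adjusted p = 1.36e-05). Rrad, an inhibitor of L-type channel opening, rose by 1.28 and 0.98. The ATP-sensitive channel partner Abcc9 (SUR2) fell by 0.83 and 0.89, and Abcc8 (SUR1) fell by 1.28 in KI hearts and changed by -0.76 in WT hearts.

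Sgk1, a kinase that raises the surface density of several channels, was at 6.76, 11.3 and 10.1 RPKM in WT TAC and 29.4, 35.4 and 31.8 in KI TAC mice. The sham mice lay between 10.9 and 13.6 RPKM, so KI TAC stood above all other groups. Sgk1 rose by 1.31 ± 0.19 in KI hearts (adjusted p = 0.000419, limma) and was higher in KI TAC than WT TAC hearts by 1.70 ± 0.19 (adjusted p = 0.00188).

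Of 30 transcription factors that control channel genes, 27 were in the table and 23 were tested. In WT hearts 1 fell (Klf15, a circadian-linked factor that controls Kcnip2, at -1.40) and none rose. In KI hearts 5 fell (Irx4, Prox1, Klf15, Nkx2-5 and Nr2f1) and none rose, with a median of -0.40. The lower calls were 4.35% of the tested factors in WT hearts, close to the 4.6% of all genes, and 21.7% in KI hearts, against 14.7%. Irx4, a ventricular patterning factor, was at 45.7, 34.2 and 44.0 RPKM in WT TAC and 8.52, 12.4 and 19.8 in KI TAC mice, with 31.6 to 51.3 in sham hearts. KI TAC mice were below the other 9, and Irx4 fell by 1.32 ± 0.26 in KI hearts (adjusted p = 0.00339, limma).

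The channel genes differed from other genes in base composition. The GC content of the longest transcript had a median of 56.1% for the tested channel genes and 50.6% for all tested genes, and 32 of the 48 were among the genes richest in GC when all were split into 3 bins of equal size. In that bin 22.5% of all genes and 18 of the 32 channel genes fell in KI hearts after TAC, against 7.61% of all genes and 4 of 6 channel genes in the bin poorest in GC. The part of base composition in the results was not tested.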

How the data were processed

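RNA was poly(A)-selected from hearts, made into directional libraries and read as single 75-base reads. Per the labels and the study's methods, the authors trimmed reads with Trimmomatic 0.39, aligned them with HISAT2 2.2.1 to GRCm38, counted genes with HTSeq 0.6.1 and normalized with edgeR 3.18.1 and limma 3.32.10 in R 4.1.1. The strand setting of the counting is not given in the sources used here, and the annotation is named as Ensembl release 97 with files of release 101. The deposited values carry no unit of their own and were read as RPKM, since multiplied by GENCODE M21 exon length they summed to nearly the same total in every mouse (997702 to 1002226). The number of other per-sample columns was 0. Whole reads were recovered from RPKM and exon length: 97.3 to 98.1% of low values fell within 0.05 of a whole read, and 6.18 to 9.60% did so with a wrong step.

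Values were analysed as log2(RPKM + 1), so fold changes of low genes are understated. The 11240 genes that reached 1 RPKM in 3 or more mice entered limma 3.58.1 in R 4.3.3 with an intensity trend and 1 spread for all 12 mice, and p-values were Benjamini-Hochberg adjusted over all genes at 0.05. ± is the standard error. The fit was checked on simulated data. Because the table held RPKM, the authors' count test was not used. The labels do not say whether mice share litters or batches, so p-values measure only the spread between these mice. Summed levels, values of single mice and the overlap of groups were read from RPKM without further scaling, in Python 3.11.15. Median-ratio size factors ran from 0.829 (KI TAC mouse 5) to 1.121 (WT TAC mouse 10).

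The channel genes, their grouping by current, and the partner, regulator and marker lists were chosen with earlier results of these data known. Genes were named as the main current carriers, as the 5 largest increases and 5 largest decreases per comparison among called genes whose groups did not overlap, and as at most 5 per list. Further names (Cacna1s, Kcna7, Kcnn1, Kcnd3os, Kcnj14) were chosen after their values were seen. Some channel genes entered every count but are not reported here by name. Alternatives were a pseudocount of 0.1, no filter, quantile normalization, median-ratio scaling, limma-voom with TMM factors on recovered reads, a fit of the 2 groups compared, omission of each mouse, and a replicate block.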

Additional observations from a re-analysis of the deposited data

How the results depend on the processing

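The 51 named calls kept their direction under all alternatives, and 273 of 306 values, apart from omissions of mice, stayed past the threshold. Omitting a mouse kept 223 of 304. Called channel genes numbered 13 in WT TAC against sham (9 to 17 when a mouse was omitted), 29 in KI TAC against sham (23 to 30), 16 in KI TAC against WT TAC (1 to 23), 0 in KI sham against WT sham (0 to 0) and 0 in the interaction (0 to 4). Over all genes the omissions gave 582 to 1505 calls in WT TAC against sham, 1448 to 2727 in KI TAC against sham and 154 to 1812 in KI TAC against WT TAC. The fit of the 2 TAC groups alone gave 3 channel genes, beside 216 of 11240 genes. Without the filter WT hearts had 5 higher and 14 lower calls, and KI TAC against WT TAC 3 and 17, over all 76 genes. All genes then gave 6.86% higher and 4.24% lower calls in WT hearts, and 2.36% and 7.26% in KI TAC against WT TAC.

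Scaling moved the balance of calls over all genes. The share of calls that were higher was 60.2% in WT hearts, 36.8% in KI hearts and 26.4% between TAC groups. It became 48.1, 48.3 and 46.0% after quantile normalization, 51.1, 51.9 and 51.8% with median-ratio scaling and 53.6, 51.9 and 49.0% with limma-voom. The channel genes lower in the 3 comparisons then numbered 15, 26 and 8, 16, 24 and 11, and 14, 24 and 12. Over all genes 7.2, 12.9 and 5.45% were lower after quantile normalization, 6.41, 11.9 and 5.39% with median-ratio scaling and 5.85, 11.96 and 5.8% with limma-voom. Limma-voom called 1417 genes in WT and 2796 in KI hearts.

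The sham groups share mouse numbers 1 to 3 and the TAC groups share only number 7. With a replicate block of the 6 sham hearts 0 channel genes were called (1 at an unadjusted p under 0.05). The same-number correlations were -0.22, -0.30 and 0.44, against -0.35 to 0.43 between different numbers. Pairing by number was thus not shown, and groups of 3 mice cannot exclude it. With 3 mice a group an exact permutation test cannot go below p = 0.1, and low channel genes rest on few reads.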

Other observations

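Ratios between related channel genes are given as values with no test. The Hcn2 to Hcn4 ratio of RPKM was 1.498 to 3.01 in WT sham, 0.780 to 2.21 in WT TAC, 1.79 to 3.93 in KI sham and 3.64 to 6.60 in KI TAC hearts. The Kcnj11 to Kcnj8 ratio, of the 2 ATP-sensitive pores, was 2.49 to 3.76, 1.39 to 2.64, 2.21 to 3.48 and 1.24 to 1.55 in the same order.

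Among regulators of channel gene transcription, 8 of 23 (34.8%, against 8.13% of all genes) were lower and none higher when KI TAC was set against WT TAC: Irx4 at -1.60, Prox1 at -1.27, Gata4 at -1.15, Nkx2-5 at -1.12 and Irx5 at -1.10 were the 5 largest. Nkx2-5 was at 342, 355 and 223 RPKM in WT TAC and 126, 100.4 and 206 in KI TAC mice. The scaffold Akap6, which anchors kinases at channels, was lower in KI TAC by 1.35 ± 0.23 (adjusted p = 0.00645, limma). Calls over all genes in this contrast fell from 1242 to 154 without WT TAC mouse 7 and to 182 without KI TAC mouse 6. The calls of the regulators and of Akap6 were not followed through these omissions or other scalings.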
